A study of Mus musculus with 12 samples.

Results

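Pressure overload was set against sham surgery over both genotypes of the series at once, to find the genes that moved the same way in wild-type and in Cd163-/- hearts. All 12 of the 12 libraries entered the comparison, 6 after transverse aortic constriction (TAC) and 6 after sham surgery. Poly(A) RNA of heart tissue was sequenced from 4 groups of 3 libraries each, TAC and sham in either genotype. WT mice were C57BL/6J. KO mice were Cd163-/- on the C57BL/6J background, and lack the scavenger receptor by which macrophages take up haemoglobin bound to haptoglobin. All mice of the 4 groups were males, 8 weeks old at surgery, kept under a 12 h light and 12 h dark cycle and operated under isoflurane. For TAC a silk thread was tied around the transverse aorta over a 27-gauge needle, and sham mice had the same operation without the tie. How long after surgery, and at which hour, the hearts were taken is not stated in the sources used here. No animal is named for each sample in the labels, so the p-values reflect variation among samples, part of which may be technical. Libraries are numbered 1, 2 and 3 in the sham groups and 1, 3 and 5 in the TAC groups, and values below follow that order.

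A gene was called when the surgery term of a model with genotype and surgery had an adjusted p under 0.05 (edgeR quasi-likelihood F test, Benjamini-Hochberg adjustment over all tested genes). It was counted as shared when it was called and its TAC libraries also lay all above, or all below, the sham libraries within WT and within KO. Levels are CPM, reads scaled to a common library size after TMM correction. Changes are log2 fold changes of TAC against sham with genotype held fixed, unless WT or KO is named.

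Pressure overload of the left ventricle makes heart muscle cells grow. It is known for the return of fetal muscle genes, the laying down of matrix and a fall in the genes of mitochondrial fuel oxidation. Heart cells also run a circadian clock. In it BMAL1, the product of Arntl, pairs with CLOCK or NPAS2 and drives genes with E-box sequences. Among these are the Per and Cry genes, whose products block BMAL1, and the output factors Dbp and Tef. REV-ERB proteins, from Nr1d1 and Nr1d2, repress Arntl, Npas2 and Nfil3 through ROR elements, and DBP, TEF and NFIL3 act on D-boxes. The Arntl arm and the Per and Dbp arm of this loop peak at opposite times of day.

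The library labelled KO sham replicate 1 stood apart from its group. On the first principal component of the 1000 most variable genes it lay at 44.6, among the KO TAC libraries at 40.4 to 44.9, while the other KO sham libraries lay at -27.1 and -24.3. WT TAC replicate 1 lay at 6.69 and the remaining WT libraries at -32.9 to -17.9. Reads of mitochondrial genes made up 51.0% of that KO sham library, 44.0% to 51.3% of KO TAC and 24.8% to 36.9% of the others. Total counts ran from 14150109 to 22602225 per library. Cd163 itself had 255 to 592 reads in WT and 46 to 112 in KO libraries, and its change with TAC was 0.31 ± 0.21 (SE, edgeR adjusted p = 0.308). All 10 cardiomyocyte markers were detected in the libraries. Values below are of all 12 libraries unless the 11 that remain without KO sham replicate 1 are named, and most gene lists are counted in both.

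The promoters printed next are examples from called clock genes, chosen after their values and matches were seen to show each clock element. Arntl, Bhlhe41, Cry1, Per1 and Tspan4 were called as well and also hold an element in the wider window searched, and they are not printed. Clock, Dbp, Npas2, Nr1d1, Nr1d2 and Usp2 were also called and hold no E-box, D-box or ROR element in that window. The printed promoters show the 250 bases before a RefSeq transcript start on GRCm38.p6, 5′ to 3′ along the gene. Capitals mark the E-box CACGTG in Ciart and in both starts of Tef. They mark the D-box TTATGNAA in Per3. In Nfil3 they mark the ROR element TAGGTCA, which lies there on the other strand.
Ciart, chr3:95882229-95882478, minus strand: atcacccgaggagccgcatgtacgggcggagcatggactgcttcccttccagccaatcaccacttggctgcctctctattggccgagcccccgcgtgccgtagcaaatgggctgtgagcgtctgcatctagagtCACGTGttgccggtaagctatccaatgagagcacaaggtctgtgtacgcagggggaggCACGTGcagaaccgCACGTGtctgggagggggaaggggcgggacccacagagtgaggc
Tef, chr15:81802423-81802672, plus strand: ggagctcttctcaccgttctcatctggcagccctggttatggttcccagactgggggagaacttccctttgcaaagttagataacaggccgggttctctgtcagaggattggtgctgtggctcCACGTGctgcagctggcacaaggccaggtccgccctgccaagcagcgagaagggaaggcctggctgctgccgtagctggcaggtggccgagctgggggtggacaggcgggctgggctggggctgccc
Tef, chr15:81811164-81811413, plus strand: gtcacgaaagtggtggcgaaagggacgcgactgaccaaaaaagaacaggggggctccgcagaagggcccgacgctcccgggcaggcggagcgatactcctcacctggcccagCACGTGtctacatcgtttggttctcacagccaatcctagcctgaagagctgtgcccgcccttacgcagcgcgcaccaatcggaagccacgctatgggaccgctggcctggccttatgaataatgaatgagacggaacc
Per3, chr4:151044666-151044915, minus strand: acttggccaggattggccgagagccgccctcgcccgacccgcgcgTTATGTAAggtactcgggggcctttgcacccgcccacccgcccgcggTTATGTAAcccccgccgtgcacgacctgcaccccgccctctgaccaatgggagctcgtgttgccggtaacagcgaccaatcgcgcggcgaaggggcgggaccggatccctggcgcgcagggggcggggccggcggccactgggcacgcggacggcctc
Nfil3, chr13:52981040-52981289, minus strand: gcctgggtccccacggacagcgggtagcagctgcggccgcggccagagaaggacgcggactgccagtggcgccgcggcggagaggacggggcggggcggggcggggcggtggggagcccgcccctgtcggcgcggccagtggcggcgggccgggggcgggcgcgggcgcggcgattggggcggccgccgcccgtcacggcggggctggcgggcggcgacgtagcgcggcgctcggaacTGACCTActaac
Ciart holds 3 E-boxes, which begin 116, 58 and 44 bases before the start. The E-boxes of Tef begin 127 bases before one start and 138 before the other. The D-boxes of Per3 begin 205 and 158 bases before its start, and the ROR element of Nfil3 begins 12 bases before. A match is a description of letters and not a bound site.

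Clock genes led the changes that both genotypes had in common. Arntl fell 4.53-fold and Npas2 2.99-fold after TAC, while Dbp rose 7.84-fold, Per2 5.87-fold and Ciart 3.83-fold. The hour at which each heart was taken is not given, so hour and surgery cannot be told apart. This holds for the clock genes and for every other gene named below. The part of the hour in these changes was not tested. Outside the clock, Tcap of the sarcomere and Ptgds, a prostaglandin D synthase, rose 3.88-fold and 3.09-fold, and the gap junction gene Gja1 fell 2.04-fold. With 12 libraries, 295 of 15804 tested genes rose after TAC, which is 1.87%, and 413 fell, which is 2.61%. Together these 708 genes are 4.48% of the genes tested. At an unadjusted p under 0.05 there were 2562 higher and 2991 lower genes. The fitted change had the same sign in WT and KO for 707 of the 708, against 11153 of all 15804 genes (70.6%). Since the surgery term is pooled over both genotypes, genes with opposite signs rarely pass, so that agreement follows largely from the selection. Shared genes numbered 190 higher (1.2%) and 230 lower (1.46%), 420 in all (2.66%). Among the other 288 called genes the libraries overlapped in KO only for 236, in WT only for 46 and in both genotypes for 6. For 220 of the 288 there was no overlap in either genotype once KO sham replicate 1 was left out. Just outside the threshold stood H2-K2, a near copy of other class I genes whose counts are uncertain for that reason, at 1.17 with an adjusted p of 0.0502. Whether called or not, TAC and sham libraries did not overlap in both genotypes for 508 higher genes (3.21%) and 425 lower genes (2.69%).

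The shared genes that rose had a median change of 0.68 in WT and 0.72 in KO, and those that fell had medians of -0.64 and -0.78, while the median over all tested genes was 0.01 in WT and -0.02 in KO. More than 2-fold changes were found in 44 of the 190 higher and 65 of the 230 lower genes. The KO change was the larger in 266 of the 420 and the WT change in 154. The change in each genotype was tested in a model of the 4 groups, whose spread is estimated over all libraries. In it 5 genes passed in WT and 0 in KO by edgeR, with 2562 and 4878 genes at an unadjusted p under 0.05. Once KO sham replicate 1 was left out, 1058 genes passed in WT and 7708 in KO. The WT libraries were the same in both fits, while the spread common to all groups was estimated anew. On 12 libraries the difference between the genotypes (interaction) passed for 0 genes by edgeR, with 1452 of 15804 at an unadjusted p under 0.05. Of the 420 shared genes 16 were among them, a smaller share than of all genes. The 2 genotypes share no library, but their tests share the estimated spread. Across all tested genes their changes had a Pearson r of 0.44 and a Spearman rho of 0.53, given as a description, since genes are not independent replicates. They were 0.46 and 0.55 without KO sham replicate 1, and 0.22 and 0.27 with WT TAC replicate 1 left out as well, where the share of genes with the same sign fell to 59.2%.

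Over the 11 libraries without KO sham replicate 1, 2913 of 16196 genes rose (18%) and 3051 fell (18.8%), together 36.8%. Shared genes were then 1313 higher (8.11%) and 1312 lower (8.1%), 2625 in all (16.2%). All 708 genes called on 12 libraries were called again in the same direction, and all 420 shared genes were shared again. These 420 make up 16% of the 2625. Both fits use the same 11 libraries, and leaving out a library can hardly add an overlap. The agreement is therefore no independent check. No overlap in both genotypes, called or not, was then found for 1414 higher (8.73%) and 1402 lower genes (8.66%). The median change of the shared higher genes was 0.62 in WT and 0.93 in KO, and of the shared lower genes -0.57 and -0.92. The interaction passed for 1961 of all 16196 genes by edgeR and for 244 of the 2625 shared genes, so the same direction came with a different size in those. With WT TAC replicate 1 also left out, the interaction passed for 5774 of 16007 genes and for 801 of the 2509 then shared. In both fits the share was smaller among shared genes than among all genes. A stricter count asks that the larger of the WT and KO p-values pass after adjustment over all genes, with the same sign. By that count 55 genes were higher and 57 lower without KO sham replicate 1, and 0 were either way on 12 libraries, where 340 higher and 445 lower genes had an unadjusted p under 0.05 in each genotype.

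The number of calls on 12 libraries depended on single libraries. It fell to 0 when any of WT sham replicates 1, 2 and 3, KO sham replicate 2, or KO TAC replicates 1 and 3 was left out. In those 6 fits 1978 to 2474 genes were higher and 2016 to 3090 lower at an unadjusted p under 0.05. It was 1 higher and 3 lower with WT TAC replicate 1 left out, 4 and 5 for WT TAC replicate 5, 3 and 4 for KO sham replicate 3, and 46 and 25 for KO TAC replicate 5. Without WT TAC replicate 3 it was 493 and 745. With KO sham replicate 1 out, leaving out any further library gave 1503 to 3525 higher and 1645 to 3751 lower genes. The lowest of these counts came without KO sham replicate 2, followed by 1776 and 1829 without KO sham replicate 3. Of the 420 shared genes, 417 were called in all 11 of those further fits.

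**Figure D1:**
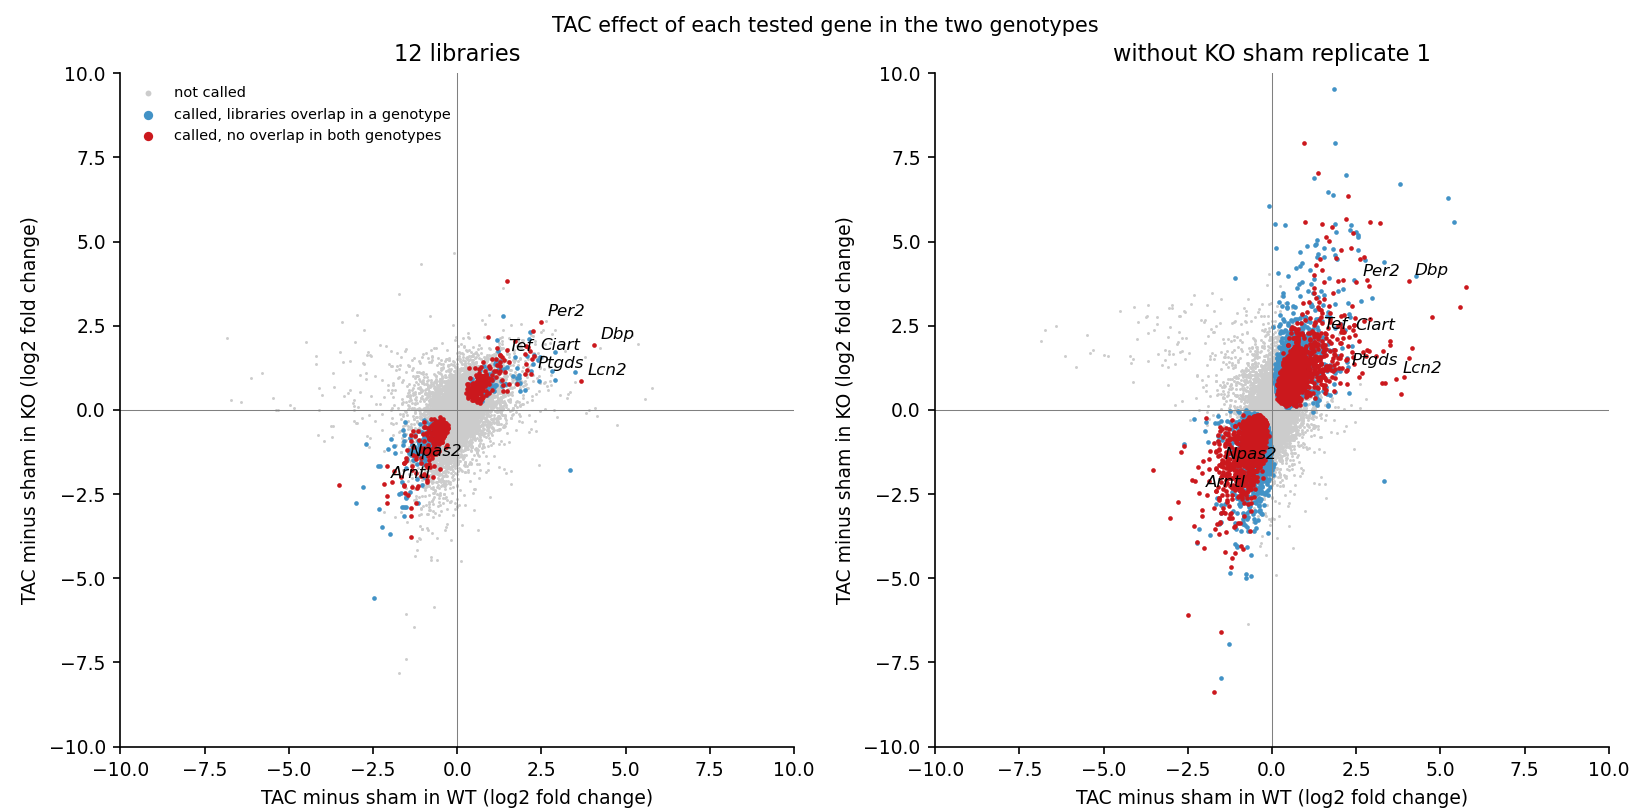
Log2 fold change of TAC against sham in KO (vertical axis) against that in WT (horizontal axis) for each of the 15804 genes tested on 12 libraries, with 12 libraries on the left and without KO sham replicate 1 on the right. Grey points were not called, blue points were called with libraries that overlap in a genotype, and red points are the shared genes. Dbp and Per2 lie far to the upper right and Arntl and Npas2 to the lower left, in both panels.

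Of 13 core clock genes 10 were called on 12 libraries, against 4.48% of all genes. Arntl, Npas2, Clock and Cry1 fell, and Ciart, Nr1d1, Nr1d2, Per1, Per2 and Per3 rose. Without KO sham replicate 1 the same 10 were called and all 10 were shared, against 36.8% of all genes called and 16.2% shared. Clock, the other partner of BMAL1, changed by -0.60 ± 0.12 (SE, edgeR adjusted p = 0.042) and overlapped in a KO library.

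Arntl (ENSMUSG00000055116), the driver of the loop, had 32.7, 31.6 and 27.7 CPM in WT sham, 9.59, 7.2 and 3.76 in WT TAC, 15.1, 30.9 and 30.8 in KO sham and 3.03, 4.62 and 8.98 in KO TAC. Every TAC library lay below every sham library of its genotype, with KO sham replicate 1 the lowest sham library. The change was -2.18 ± 0.28 (SE, edgeR adjusted p = 0.0187), with -2.16 in WT and -2.20 in KO, and -2.30 ± 0.26 (edgeR adjusted p = 4.81e-04) without KO sham replicate 1. Npas2 (ENSMUSG00000026077), its partner in CLOCK's place, had 6.83, 7.58 and 8.3 CPM in WT sham, 3.88, 1.83 and 1.8 in WT TAC, 8.12, 9.57 and 8.81 in KO sham and 1.79, 3.21 and 3.93 in KO TAC. Here KO sham replicate 1 lay with the other sham libraries, and no TAC library reached a sham library. Npas2 changed by -1.58 ± 0.22 (SE, edgeR adjusted p = 0.0187), and by -1.61 ± 0.23 (edgeR adjusted p = 0.00141) without that library.

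Among the repressors, Ciart (ENSMUSG00000038550), which inhibits BMAL1, had 3.18, 2.31 and 2.83 CPM in WT sham, 12.9, 11.8 and 16 in WT TAC, 8.33, 3.41 and 3.0 in KO sham and 17.7, 16.7 and 9.44 in KO TAC. All TAC libraries were above the sham libraries of their genotype, and KO sham replicate 1 lay close under KO TAC replicate 5. The change was 1.94 ± 0.27 (SE, edgeR adjusted p = 0.0187), or 3.83-fold, and 2.24 ± 0.18 (edgeR adjusted p = 8.72e-05) without that library. Per2 (ENSMUSG00000055866), a period gene, had 5.08, 4.9 and 5.97 CPM in WT sham, 23.8, 26.9 and 39.8 in WT TAC, 36.2, 4.64 and 9.93 in KO sham and 124, 143 and 38.1 in KO TAC. KO TAC replicates 1 and 3 stood above all other libraries, while KO sham replicate 1 and KO TAC replicate 5 were close together. Per2 changed by 2.55 ± 0.44 (SE, edgeR adjusted p = 0.0411), and by 3.08 ± 0.39 (edgeR adjusted p = 9.08e-04) without KO sham replicate 1.

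Per3, another period gene, showed 11.5, 11.8 and 14.1 CPM in WT sham, 34.3, 32.4 and 36.5 in WT TAC, 43.3, 11.8 and 9.46 in KO sham and 80.9, 75.6 and 62.7 in KO TAC. No TAC library overlapped the sham libraries of its genotype. Its change was 1.62 ± 0.30 (SE, edgeR adjusted p = 0.0411). With KO sham replicate 1 left out it was 1.47 in WT and 2.77 in KO, and the 2 changes differed (interaction, edgeR adjusted p = 0.00489). Nr1d2, a REV-ERB, also differed in size in that fit, with 1.26 in WT and 2.59 in KO (edgeR adjusted p = 0.00853). Nr1d2 changed by 1.45 ± 0.30 (SE, edgeR adjusted p = 0.0439) and Nr1d1 by 1.17 ± 0.20 (SE, edgeR adjusted p = 0.0411) over 12 libraries. Per1 was called at 1.28 ± 0.30 (SE, edgeR adjusted p = 0.0464) but was not shared, since KO sham replicate 1 had 124 CPM and KO TAC replicate 1 had 102. Cry1, a partner of the PER proteins, changed by -1.07 ± 0.25 (SE, edgeR adjusted p = 0.0466) and was not shared for the same kind of overlap, with 7.1 CPM in KO sham replicate 1 and 6.36 to 11 in KO TAC.

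**Figure D2:**
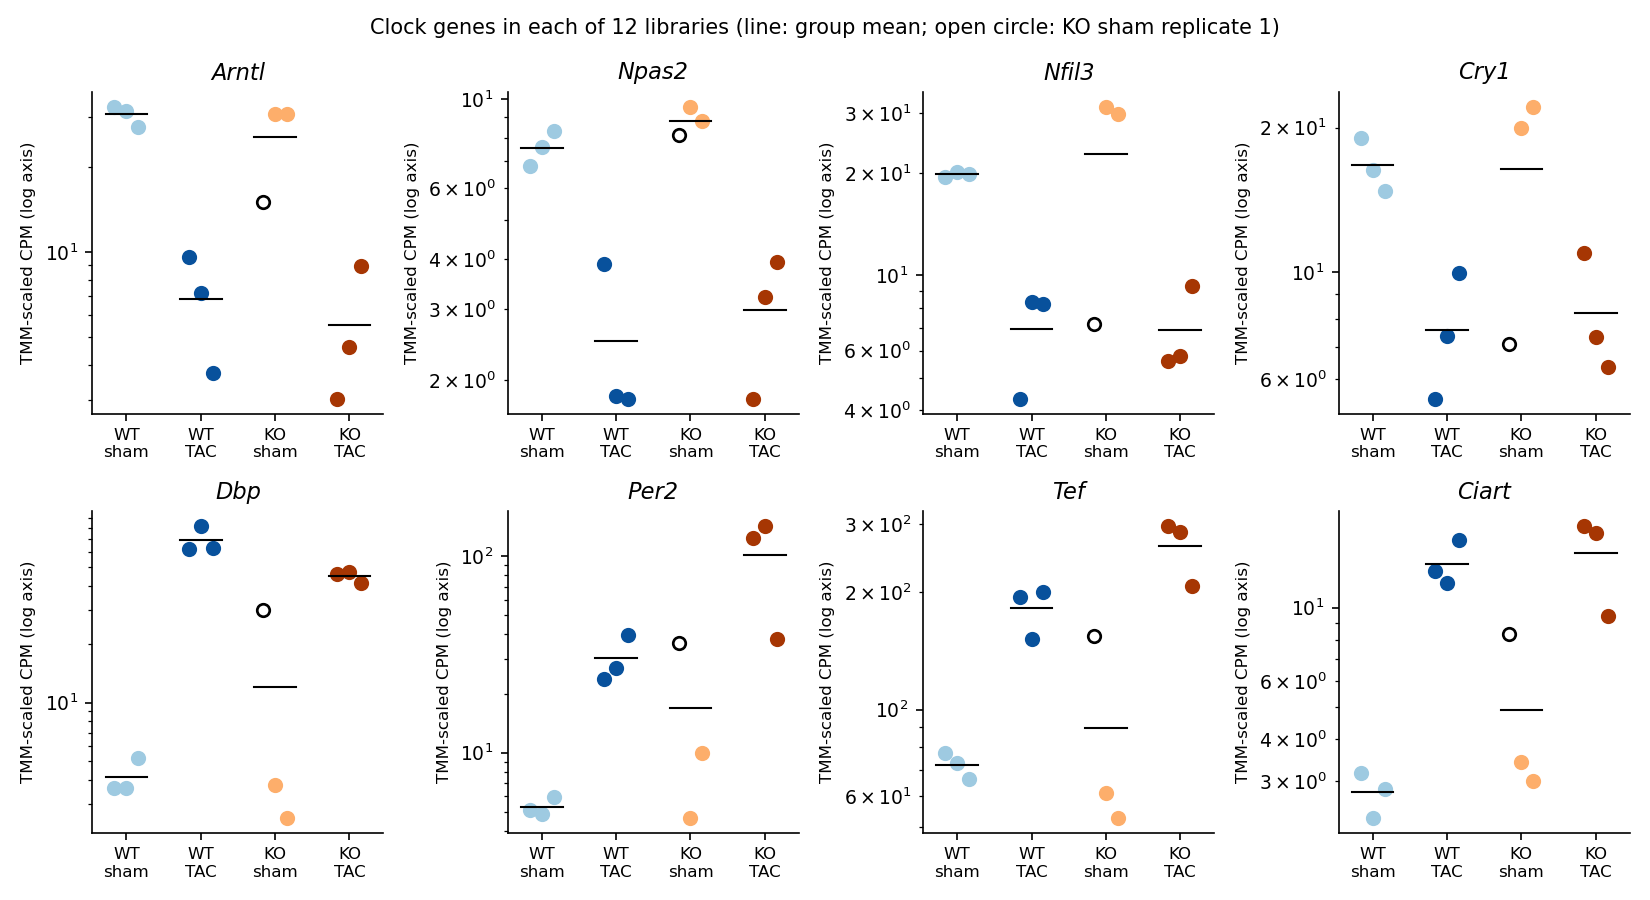
TMM-scaled CPM on a log axis for 8 clock genes in the 12 libraries, by group, with each point a library, the line the mean of the group and the open circle KO sham replicate 1. Arntl, Npas2, Nfil3 and Cry1 are lower after TAC and Dbp, Per2, Tef and Ciart higher, and the open circle lies between the other KO sham and the KO TAC libraries for Arntl, Dbp, Per2, Tef and Ciart.

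Clock output genes rose in 5 of 11 tested members, against 1.87% of all genes, and fell in 1, Nfil3, against 2.61%. Of these, 3 that rose were shared and 0 that fell. Without KO sham replicate 1, 6 rose and 1 fell, against 18% and 18.8% of all genes. All of them were shared, against 8.11% and 8.1%. Dbp, the output factor with the largest change, had 3.6, 3.63 and 5.17 CPM in WT sham, 62.4, 81.8 and 63.2 in WT TAC, 29.9, 3.74 and 2.53 in KO sham and 46.3, 47.5 and 41.6 in KO TAC. The WT TAC libraries stood far above WT sham, and KO TAC above all KO sham libraries including KO sham replicate 1, which lay well above the other 2. Dbp changed by 2.97 ± 0.59 (SE, edgeR adjusted p = 0.0411), 4.06 in WT and 1.93 in KO. On 11 libraries Dbp changed by 3.96 ± 0.16 (edgeR adjusted p = 4.91e-08), or 15.6-fold, with 4.06 in WT and 3.83 in KO. That is the smallest p in the fit of 11 libraries, and the stricter count gave an adjusted p of 8.93e-06.

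Tef, of the same family, had 77.5, 72.9 and 66.5 CPM in WT sham, 195, 151 and 201 in WT TAC, 155, 61 and 52.7 in KO sham and 296, 286 and 208 in KO TAC. TAC and sham did not overlap within a genotype. Tef changed by 1.45 ± 0.24 (SE, edgeR adjusted p = 0.0411), and by 1.71 ± 0.19 (edgeR adjusted p = 4.81e-04) without KO sham replicate 1, where the KO change was the larger at 2.21 against 1.33 (interaction, edgeR adjusted p = 0.0399). Usp2, a deubiquitinase of the clock, changed by 0.81 ± 0.13 (SE, edgeR adjusted p = 0.0411). Nfil3, the repressor on D-boxes, had 19.4, 20.2 and 19.9 CPM in WT sham, 4.33, 8.33 and 8.22 in WT TAC, 7.17, 31.3 and 29.8 in KO sham and 5.59, 5.79 and 9.31 in KO TAC. Only KO sham replicate 1 lay among the KO TAC values. Nfil3 changed by -1.62 ± 0.31 (SE, edgeR adjusted p = 0.0411), and by -1.80 ± 0.20 (edgeR adjusted p = 4.77e-04) without that library. Tspan4 and Bhlhe41 were called at 1.08 ± 0.21 and 0.74 ± 0.17 without being shared, and Bhlhe40 stood at 0.77 ± 0.20 (SE, edgeR adjusted p = 0.0503).

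The ratio of Dbp to Arntl within a library (each CPM plus 0.5) describes how far each library lay along the clock genes. It must separate the surgeries within a genotype, since both genes were chosen for that. In WT it was 0.123, 0.129 and 0.201 after sham and 6.24, 10.7 and 15 after TAC. In KO it was 1.95, 0.135 and 0.0969 after sham and 13.3, 9.38 and 4.44 after TAC. KO sham replicate 1 was the only sham library above 1, and it stayed under every TAC library. On a scale where the mean of the other KO sham libraries is 0 and that of KO TAC is 1, it lay at a median of 0.71 over the 18 clock genes called without it. Over the 5885 genes called without it among those tested on 12 libraries it lay at 0.97. It stood at 0.11 for Npas2, 0.40 for Arntl, 0.65 for Per2 and 0.84 for Dbp. Over 48 called genes of fatty acid, citric acid cycle, branched-chain and ketone metabolism it lay at 1.15.

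In the 300 bases around RefSeq starts (250 before to 50 after), searched on both strands, the E-box CACGTG was found in 1273 of 11158 tested genes with a promoter (11.4%). It was found in 25 of 143 shared higher genes (17.5%) and 20 of 164 shared lower genes (12.2%), and in 6 of 20 members of the clock lists. Among genes tested in both fits and shared without KO sham replicate 1 it was found in 118 of 910 higher (13%) and 102 of 918 lower genes (11.1%). The ROR element TAGGTCA was found in 2.23% of all, 2.10% of shared higher and 3.66% of shared lower genes, and the D-box TTATGNAA in 2.53%, 2.10% and 0.610%. These shares are given with no test.

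Among shared genes with a group mean of at least 1 CPM and a settled symbol, the 10 largest rises were those of the clock genes Dbp, Per2 and Ciart and of Lcn2, Slc15a2, Olfr1394, Tcap, Slfn1, Adh1 and Ptgds. Lcn2, the secreted iron carrier lipocalin-2, had 1.32, 0.681 and 0.746 CPM in WT sham, 5.06, 22.6 and 7.46 in WT TAC, 1.09, 0.904 and 1.03 in KO sham and 2.34, 2.03 and 1.11 in KO TAC. The rise was large in WT and small in KO, where KO TAC replicate 5 lay just above KO sham replicate 1. Lcn2 changed by 2.38 ± 0.57 (SE, edgeR adjusted p = 0.0467), with 3.68 in WT and 0.86 in KO. The interaction had an edgeR adjusted p of 0.395 on 12 libraries and 0.0514 without KO sham replicate 1.

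Tcap, which encodes telethonin of the sarcomere Z-disc, had 355, 396 and 491 CPM in WT sham, 2478, 1606 and 1424 in WT TAC, 1139.7, 297 and 232 in KO sham and 1982, 2038 and 1631 in KO TAC. All TAC libraries were above all sham libraries of the series, KO sham replicate 1 included. Tcap changed by 1.95 ± 0.35 (SE, edgeR adjusted p = 0.0411), and by 2.44 ± 0.22 (edgeR adjusted p = 1.94e-04) without that library. Ptgds, the lipocalin-type prostaglandin D synthase, had 113, 97.8 and 111 CPM in WT sham, 461, 443 and 561 in WT TAC, 96.8, 78.1 and 80.8 in KO sham and 202, 189.9 and 143 in KO TAC. KO sham replicate 1 lay near the other sham libraries here. Ptgds changed by 1.63 ± 0.21 (SE, edgeR adjusted p = 0.0187), with 2.19 in WT and 1.06 in KO, and without KO sham replicate 1 the WT change was the larger (interaction, edgeR adjusted p = 0.0177).

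Slc15a2, a peptide transporter, had 3.76, 3.18 and 0.298 CPM in WT sham, 11.9, 6.61 and 15.8 in WT TAC, 1.64, 6.0 and 12.7 in KO sham and 57.6, 28.5 and 17.8 in KO TAC. The groups did not overlap within a genotype, but WT sham replicate 3 and KO sham replicate 1 were far below their groups. Slc15a2 changed by 2.29 ± 0.52 (SE, edgeR adjusted p = 0.0463), and by 2.06 ± 0.46 (edgeR adjusted p = 0.0065) without KO sham replicate 1. Adh1, an alcohol dehydrogenase, had 5.19, 4.9 and 6.61 CPM in WT sham, 33.6, 9.84 and 26.3 in WT TAC, 11.3, 4.48 and 6.0 in KO sham and 20.3, 17.5 and 11.4 in KO TAC. In KO the lowest TAC and the highest sham library, replicate 5 and KO sham replicate 1, were nearly level. Adh1 changed by 1.63 ± 0.32 (SE, edgeR adjusted p = 0.0411). Slfn1 changed by 1.73 ± 0.39 (SE, edgeR adjusted p = 0.0463) and Olfr1394, an olfactory receptor gene, by 1.97 ± 0.49 (SE, edgeR adjusted p = 0.048), at levels of 0.0994 to 1.47 CPM for Slfn1 and 0.0454 to 2.16 CPM for Olfr1394.

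Under the same limits on level and symbol, the shared genes with the largest fall were Fam124b, Tmem171, Arntl, Ccnjl, Adra1d, Pnpla3, Pcdhgc3, Spon2, Klhl11 and Plekhh1. Spon2, a secreted matrix protein of the spondin family, had 4.71, 7.44 and 8.6 CPM in WT sham, 1.87, 1.88 and 1.14 in WT TAC, 7.3, 13.4 and 10.7 in KO sham and 1.93, 3.36 and 4.52 in KO TAC. TAC libraries were below sham in both genotypes, and KO sham replicate 1 was the lowest KO sham library. Spon2 changed by -1.87 ± 0.25 (SE, edgeR adjusted p = 0.0187), and by -1.99 ± 0.23 (edgeR adjusted p = 6.12e-04) without it. Soga1, which was among the 4 smallest p-values, had 17.3, 17.4 and 15.4 CPM in WT sham, 6.39, 6.07 and 5.23 in WT TAC, 9.28, 18.4 and 21.8 in KO sham and 6.27, 7.43 and 8.0 in KO TAC. The 6 TAC libraries lay within a narrow range, and KO sham replicate 1 lay between them and the other sham libraries. Soga1 changed by -1.35 ± 0.18 (SE, edgeR adjusted p = 0.0187), with -1.50 in WT and -1.19 in KO, and by -1.49 ± 0.11 (edgeR adjusted p = 3.59e-05) without that library.

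Tmem171, a membrane protein, had 7.57, 6.63 and 6.66 CPM in WT sham, 1.18, 1.56 and 2.18 in WT TAC, 1.02, 5.14 and 4.87 in KO sham and 0.896, 0.391 and 0.59 in KO TAC. KO sham replicate 1 was just above the highest KO TAC library. Tmem171 changed by -2.28 ± 0.35 (SE, edgeR adjusted p = 0.0277), and by -2.43 ± 0.23 (edgeR adjusted p = 2.14e-04) without that library. Fam124b had 2.91, 2.5 and 3.68 CPM in WT sham, 1.13, 0.645 and 0.327 in WT TAC, 1.3, 4.31 and 4.03 in KO sham and 0.345, 0.548 and 0.524 in KO TAC. All TAC libraries were below all sham libraries of the series. Fam124b changed by -2.40 ± 0.35 (SE, edgeR adjusted p = 0.027), and by -2.53 ± 0.30 (edgeR adjusted p = 6.12e-04) without KO sham replicate 1.

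Adra1d, an alpha-1 adrenergic receptor, had 2.17, 2.54 and 1.84 CPM in WT sham, 0.688, 1.18 and 0.653 in WT TAC, 0.205, 1.77 and 1.83 in KO sham and 0.138, 0.156 and 0.131 in KO TAC. The KO TAC libraries were the lowest of the series and KO sham replicate 1 lay just above them. Adra1d changed by -1.97 ± 0.46 (SE, edgeR adjusted p = 0.0465). With KO sham replicate 1 left out the fall was larger in KO, -3.61 against -1.38 (interaction, edgeR adjusted p = 0.0221). Pnpla3, a lipid droplet hydrolase, changed by -1.91 ± 0.36 (SE, edgeR adjusted p = 0.0411) and Pcdhgc3, a protocadherin, by -1.88 ± 0.38 (SE, edgeR adjusted p = 0.0437). Pcdhgc3 shares exons with the rest of its gene cluster, so its counts are uncertain. Ccnjl changed by -2.02 ± 0.37 (SE, edgeR adjusted p = 0.0411), Plekhh1 by -1.81 ± 0.34 (SE, edgeR adjusted p = 0.0411) and Klhl11 by -1.87 ± 0.45 (SE, edgeR adjusted p = 0.0467). For Pcdhgc3, KO sham replicate 1 and KO TAC replicate 5 were level after rounding, at 1.77 CPM. All 20 of these leading genes were called without KO sham replicate 1 and in each of the 11 fits that left out a further library. They were picked from these same libraries. Against the fit of 12 libraries, each lost its call in 7 (Arntl and Ptgds) to 13 (Lcn2 and Slc15a2, among others) of the alternative settings. Omissions of single libraries were among these settings.

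**Figure D3:**
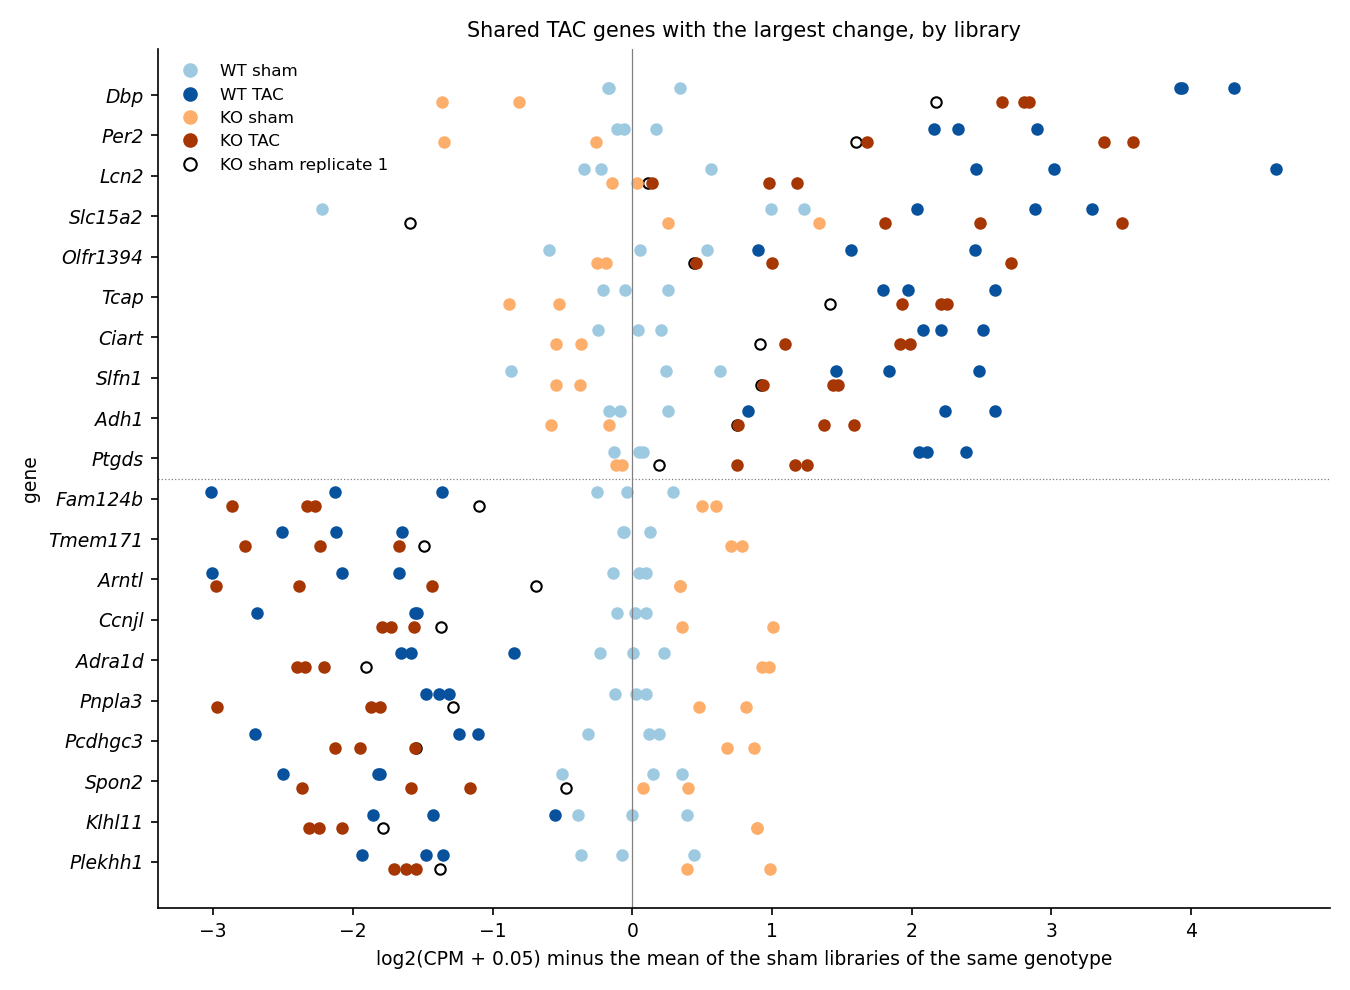
Level of the 10 shared genes with the largest rise and the 10 with the largest fall in each library, as log2(CPM + 0.05) minus the mean of the sham libraries of the same genotype (horizontal axis), with genes on the vertical axis. WT and KO libraries are drawn on separate rows per gene, and open circles are KO sham replicate 1, which lies between the mean of the other KO sham libraries and that of KO TAC for the genes drawn except Slc15a2, where it lies on the far side of the sham libraries.

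Gene lists are read against the share of all genes called. On 12 libraries 1.87% of genes were higher and 2.61% lower, with 1.2% and 1.46% shared. Among the 11 libraries 18% were higher and 18.8% lower, with 8.11% and 8.1% shared. At an unadjusted p under 0.05, 2562 of the 15804 genes tested on 12 libraries were higher and 2991 lower. DESeq2 called 1489 higher and 1744 lower genes, and limma 3250 and 3474. List counts by these looser rules are read against those numbers and not against the smaller shares of edgeR calls.

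Of 12 tested glucocorticoid response genes, Fkbp5, Cebpd and Lcn2 rose by edgeR and 0 fell, with 7 higher and 0 lower at an unadjusted p under 0.05, 6 and 0 by DESeq2 and 7 and 0 by limma. Fkbp5, a co-chaperone of the glucocorticoid receptor, had 10.6, 8.99 and 8.1 CPM in WT sham, 26.9, 23.7 and 71.4 in WT TAC, 12.1, 5.75 and 9.93 in KO sham and 55, 52.6 and 10.7 in KO TAC. WT TAC was above WT sham, and in KO replicates 1 and 3 were high after TAC while replicate 5 lay within the sham range. Fkbp5 changed by 2.12 ± 0.39 (SE, edgeR adjusted p = 0.0411). Cebpd, a transcription factor, changed by 0.87 ± 0.20 (SE, edgeR adjusted p = 0.0464). With KO sham replicate 1 out, 7 of the 12 rose, against 18% of all genes, and 3 were shared, against 8.11%. Of 7 metallothionein and zinc genes Mt1, a zinc buffer, rose, at 1.65 ± 0.31 (SE, edgeR adjusted p = 0.0411), and by 1.95 ± 0.20 (edgeR adjusted p = 3.33e-04) without KO sham replicate 1, more in WT (2.43) than in KO (1.38, interaction edgeR adjusted p = 0.0156).

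Of 17 cardiac stress genes, Ankrd2 rose on 12 libraries and 0 fell, with 6 higher and 1 lower at an unadjusted p under 0.05, 2 and 0 by DESeq2 and 3 and 2 by limma. Ankrd2, a stretch-responsive ankyrin repeat protein, had 0.423, 0.182 and 0.249 CPM in WT sham, 1.18, 5.86 and 2.72 in WT TAC, 1.71, 0.247 and 0.609 in KO sham and 1.86, 1.64 and 1.84 in KO TAC. WT TAC was above WT sham, and KO sham replicate 1 was among the KO TAC values. Ankrd2 changed by 2.24 ± 0.58 (SE, edgeR adjusted p = 0.0489) and was shared without that library, at 2.85 ± 0.47 (edgeR adjusted p = 0.00233). Acta1, skeletal alpha-actin, had 225, 203 and 117 CPM in WT sham, 1451, 1256 and 2557 in WT TAC, 1389, 509.6 and 803 in KO sham and 1251, 1129.7 and 1092 in KO TAC. It was higher in every WT TAC library, and in KO all TAC libraries were above sham replicates 2 and 3. Over the 11 libraries 5 of the 17 rose and 2 fell, with 3 and 0 shared. The change of Acta1 was 1.82 ± 0.54 (SE, edgeR adjusted p = 0.0594), and 2.13 ± 0.45 (edgeR adjusted p = 0.00543) without KO sham replicate 1, where WT (3.27) and KO (0.81) differed in size (interaction, edgeR adjusted p = 0.00697).

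Nppa, Nppb and Myh7 of the fetal programme were not shared in either fit. Nppb, B-type natriuretic peptide, stood at 0.47 ± 0.26 (SE, edgeR adjusted p = 0.208), with 1.21 in WT and -0.27 in KO. Nppa, its atrial relative, stood at 0.23 ± 0.66 (SE, edgeR adjusted p = 0.821), and Myh7, the slow myosin heavy chain, at 0.31 ± 0.21 (SE, edgeR adjusted p = 0.292). Nppa is also an atrial marker. The summed level of the 11 atrial markers ran from 605 to 3019 CPM in WT sham, 649 to 1269 in WT TAC, 754 to 3676 in KO sham and 998 to 3085 in KO TAC, and its part in the result was not tested.

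Among 24 genes of contraction and calcium handling, Tnnc1 rose and Gja1 fell, and both were shared. Gja1, the gap junction protein connexin 43, had 547, 529.7 and 444 CPM in WT sham, 178, 408 and 285 in WT TAC, 161, 478 and 386 in KO sham and 127, 153 and 149 in KO TAC. TAC libraries were lower in both genotypes, and KO sham replicate 1 was just above KO TAC. Gja1 changed by -1.03 ± 0.26 (SE, edgeR adjusted p = 0.048), and by -1.16 ± 0.22 (edgeR adjusted p = 0.00353) without that library. Tnnc1, cardiac troponin C, had 1921, 1654 and 2088 CPM in WT sham, 3599, 2518 and 2958 in WT TAC, 1852, 1494 and 1428 in KO sham and 2242, 2302 and 2263 in KO TAC. It was higher after TAC in both genotypes and changed by 0.60 ± 0.15 (SE, edgeR adjusted p = 0.048). Among the 11 libraries, 12 of the 24 fell, against 18.8% of all genes, and 1 rose. Gja1 and Myh6 were the shared ones that fell and Tnnc1 the shared one that rose, 3 of 24 against 16.2% of all genes. Myh6, the adult myosin heavy chain, changed then by -0.48 ± 0.15 (edgeR adjusted p = 0.0276). In bulk tissue, fewer cells of a type and less RNA per cell cannot be told apart. The 10 cardiomyocyte markers summed to 55493 to 56648 CPM in WT sham, 51901 to 52781 in WT TAC, 27805 to 49470 in KO sham and 35849 to 39117 in KO TAC, with the lowest value in KO sham replicate 1. Without that library 5 of the 10 markers fell and 1 was shared. Their part in these results was not tested.

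Of 29 tested nuclear genes of the respiratory chain, 5 rose and 0 fell on 12 libraries, against 1.87% and 2.61% of all genes, with 9 higher and 3 lower at an unadjusted p under 0.05, 9 and 2 by DESeq2 and 9 and 6 by limma. The shared ones were Uqcrq of complex III, Cox5b of complex IV, and Ndufb3 and Ndufa4, and Cox7a1 rose without being shared. Uqcrq had 309.7, 259 and 393 CPM in WT sham, 754, 443 and 432 in WT TAC, 504, 305 and 303 in KO sham and 693, 796 and 669 in KO TAC. TAC was higher in both genotypes, and KO sham replicate 1 was the highest sham library. Uqcrq changed by 0.86 ± 0.20 (SE, edgeR adjusted p = 0.0463), Cox5b by 0.78 ± 0.18 (SE, edgeR adjusted p = 0.0465), Ndufb3 by 0.61 ± 0.15 (SE, edgeR adjusted p = 0.0467) and Ndufa4 by 0.59 ± 0.16 (SE, edgeR adjusted p = 0.0493). In the 11-library fit 8 rose and 5 fell, against 18% and 18.8% of all genes, so the count that fell is near the share over all genes. Of these 7 and 2 were shared, against 8.11% and 8.1%, and the fallers include Ndufs1 of complex I at -1.19 ± 0.25 (edgeR adjusted p = 0.00514). The median over the list was -0.12 on 12 libraries and -0.20 without that library, against -0.01 and 0.00 over all genes.

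Genes of fuel oxidation were not called on 12 libraries apart from Bdh1. Of 29 fatty acid genes 0 passed by edgeR, with 1 higher and 12 lower at an unadjusted p under 0.05, 1 and 9 by DESeq2 and 1 and 17 by limma. Of 20 citric acid cycle genes 0 passed, with 13 lower at an unadjusted p under 0.05, 10 by DESeq2 and 15 by limma. On the other 11 libraries 18 fatty acid and 16 citric acid cycle genes fell, against 18.8% of all genes, and 1 and 0 rose. Of these 5 of 29 and 4 of 20 were shared, against 8.1% of all genes. Hadha, the alpha subunit of the trifunctional protein of beta-oxidation, had 1202, 1199 and 1035 CPM in WT sham, 434, 919.6 and 786 in WT TAC, 180, 929 and 876 in KO sham and 233, 229 and 231 in KO TAC. Every WT TAC library was below WT sham, WT TAC replicate 1 the most, and in KO all TAC libraries were far below sham replicates 2 and 3 and above sham replicate 1. Its change was -1.10 ± 0.35 (SE, edgeR adjusted p = 0.0651), and -1.27 ± 0.25 (edgeR adjusted p = 0.00418) without KO sham replicate 1, with -0.68 in WT and -1.97 in KO (interaction, edgeR adjusted p = 0.0262).

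Cs, citrate synthase, showed the same order, with 1151, 1134 and 951 CPM in WT sham, 568, 883 and 927 in WT TAC, 225, 1157 and 1050.4 in KO sham and 267, 246 and 259 in KO TAC. Its change without KO sham replicate 1 was -1.20 ± 0.28 (edgeR adjusted p = 0.00783), with -0.45 in WT and -2.11 in KO (interaction, edgeR adjusted p = 0.00488). The share of mitochondrial reads was higher in KO TAC, at 44.0% to 51.3%, than in every WT library. WT TAC replicate 1 had the lowest share of the series, 24.8%, and the lowest Hadha and Cs levels of the WT libraries. The part of this share in the result was not tested. The 13 mitochondrially encoded genes themselves were not called in either fit. On 12 libraries 0 of them had an unadjusted p under 0.05 and 0 passed by DESeq2 or limma. Of 16 branched-chain and ketone genes, 12 fell without KO sham replicate 1 and 6 of those were shared, against 18.8% and 8.1% of all genes, among them Ppm1k, the phosphatase that activates branched-chain oxidation, at -0.99 ± 0.17 (edgeR adjusted p = 0.00265). Bdh1, which interconverts ketone bodies, was the only one that rose, and it was shared in both fits, with 55.7, 49.8 and 56.2 CPM in WT sham, 89.2, 139.8 and 218 in WT TAC, 37.1, 23.4 and 25.5 in KO sham and 42.9, 41.2 and 41.4 in KO TAC and a change of 1.01 ± 0.23 (SE, edgeR adjusted p = 0.0463). Of 22 glycolysis and glycogen genes 0 passed on 12 libraries, with 2 higher and 8 lower at an unadjusted p under 0.05, 2 and 5 by DESeq2 and 2 and 13 by limma. Over the 11 libraries 10 fell, 2 rose and 4 were shared, all of them lower, including Pfkm, muscle phosphofructokinase, at -1.02 ± 0.19 (edgeR adjusted p = 0.00348).

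Of 18 collagen genes 0 were called on 12 libraries, with 2 lower at an unadjusted p under 0.05, 1 by DESeq2 and 2 by limma, and without KO sham replicate 1 Col15a1 and Col6a2 fell and 0 were shared, against 18.8% of all genes that fell. Of 17 matricellular genes 0 were called, with 6 higher at an unadjusted p under 0.05, 2 by DESeq2 and 8 by limma. On 11 libraries 10 of them rose, against 18% of all genes, and 7 were shared, against 8.11%. Spp1, osteopontin, had 0.371, 0.499 and 0.149 CPM in WT sham, 0.836, 1.83 and 4.36 in WT TAC, 4.37, 0.411 and 0.562 in KO sham and 4.07, 2.97 and 2.23 in KO TAC. Its WT libraries did not overlap, and KO sham replicate 1 was above every KO TAC library. Spp1 changed by 1.68 ± 0.64 (SE, edgeR adjusted p = 0.0939) on 12 libraries and by 2.70 ± 0.43 (edgeR adjusted p = 0.00215) without that one.

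Thbs4, thrombospondin 4, followed the same order, with 3.6, 5.67 and 3.68 CPM in WT sham, 7.57, 12.1 and 34.7 in WT TAC, 39.2, 4.23 and 5.9 in KO sham and 29.2, 24.1 and 22.8 in KO TAC. It changed by 1.33 ± 0.55 (SE, edgeR adjusted p = 0.113), and by 2.18 ± 0.34 (edgeR adjusted p = 0.00199) without KO sham replicate 1. Ccn5, Ccn2, Postn and Cilp were shared only without that library, at 1.70 ± 0.26 (edgeR adjusted p = 0.00179), 1.18 ± 0.24 (edgeR adjusted p = 0.00461), 1.46 ± 0.38 (edgeR adjusted p = 0.0126) and 1.68 ± 0.34 (edgeR adjusted p = 0.00454). Tnc, tenascin C, was also shared then, at 2.24 ± 0.58 (edgeR adjusted p = 0.0126), with a larger change in WT, 3.83 against 0.47 in KO (interaction, edgeR adjusted p = 0.00877). The 12 fibroblast markers summed to 1768 to 2069 CPM in WT sham, 1450 to 1859 in WT TAC, 1951 to 2696 in KO sham and 2520 to 3084 in KO TAC. On 11 libraries 2 of the 12 rose and 1 fell, all 3 shared. Their part in these results was not tested.

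Among 19 matrix cross-linkers, proteases and inhibitors, Mmp14 fell and was shared and Timp4 rose. Mmp14, a membrane-bound matrix metalloprotease, had 12.5, 15.3 and 11.9 CPM in WT sham, 10.1, 10.3 and 11.3 in WT TAC, 13.6, 17.7 and 17.6 in KO sham and 8.34, 5.55 and 8.72 in KO TAC. It was lower after TAC in both genotypes and changed by -0.72 ± 0.17 (SE, edgeR adjusted p = 0.0467). Timp4, the metalloprotease inhibitor of heart muscle, had 28.4, 18.7 and 26.9 CPM in WT sham, 118, 56.1 and 79 in WT TAC, 45.5, 19.7 and 33.9 in KO sham and 72.7, 88.5 and 28.5 in KO TAC. Its KO libraries overlapped, with TAC replicate 5 under KO sham replicates 1 and 3. Timp4 changed by 1.36 ± 0.31 (SE, edgeR adjusted p = 0.0463). Over the 11 libraries 6 of the 19 rose and 3 fell, with 3 and 1 shared. Of 21 genes of TGF-beta signalling, Smad7 was among those that rose and Ltbp1 fell. Ltbp1, which holds latent TGF-beta in the matrix, had 53.9, 58.6 and 44 CPM in WT sham, 23.8, 24.5 and 31.5 in WT TAC, 33.5, 43.7 and 46.2 in KO sham and 32.1, 25.4 and 28.5 in KO TAC. TAC libraries were lower in both genotypes. Ltbp1 changed by -0.75 ± 0.14 (SE, edgeR adjusted p = 0.0411), and Smad7, an inhibitor of the pathway, by 0.52 ± 0.12 (SE, edgeR adjusted p = 0.0465). In that list 7 rose and 4 fell on 11 libraries, with 5 and 1 shared.

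Of 17 endoplasmic reticulum stress genes Trib3 rose and was shared, with 1.85, 1.77 and 2.54 CPM in WT sham, 4.03, 2.85 and 3.16 in WT TAC, 3.07, 2.14 and 2.39 in KO sham and 7.38, 6.57 and 4.46 in KO TAC and a change of 1.00 ± 0.20 (SE, edgeR adjusted p = 0.0411). Trib3 is a pseudokinase of the stress response. On 11 libraries 2 of the 17 rose and 8 fell, with 2 and 1 shared. Of 30 interferon response genes 0 passed on 12 libraries, with 18 higher at an unadjusted p under 0.05, 12 by DESeq2 and 19 by limma. With KO sham replicate 1 out, 16 rose, against 18% of all genes, 0 fell and 5 were shared, against 8.11%, among them Oas2, an antiviral synthetase, with 14.2, 10.1 and 18.6 CPM in WT sham, 78.9, 23.8 and 28.9 in WT TAC, 71.2, 23.2 and 28.6 in KO sham and 81.6, 76.1 and 81.8 in KO TAC. TAC libraries were above sham in both genotypes, with KO sham replicate 1 just under KO TAC and WT TAC replicate 1 the highest of WT. Oas2 changed by 1.29 ± 0.34 (SE, edgeR adjusted p = 0.0503), and by 1.62 ± 0.28 (edgeR adjusted p = 0.00273) without KO sham replicate 1.

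Of 18 general macrophage markers, C1qa and Itgam rose and Adgre1 fell, so the list did not move one way. Adgre1, which encodes F4/80, had 9.42, 8.67 and 7.11 CPM in WT sham, 3.79, 4.52 and 6.86 in WT TAC, 6.01, 13.6 and 12.3 in KO sham and 5.03, 4.22 and 4.85 in KO TAC. It was lower after TAC in both genotypes, and KO sham replicate 1 was the lowest KO sham library. Adgre1 changed by -0.95 ± 0.21 (SE, edgeR adjusted p = 0.0463), C1qa, a complement subunit, by 0.50 ± 0.13 (SE, edgeR adjusted p = 0.0481), and Itgam, which encodes CD11b, by 0.89 ± 0.21 (SE, edgeR adjusted p = 0.0464). Of 13 tested resident macrophage markers Vsig4, a complement receptor, was the 1 called, against 1.87% of all genes called higher. It was shared, at 1.56 ± 0.40 (SE, edgeR adjusted p = 0.0485). In that list 6 changes were positive in both genotypes, 3 negative in both and 4 opposite. Without KO sham replicate 1, 4 of the 13 rose and 1 fell, with 2 and 0 shared. The 18 general macrophage markers summed to 299 to 342 CPM in WT sham, 327 to 516 in WT TAC, 398 to 435 in KO sham and 401 to 408 in KO TAC. Over the 11 libraries 6 of the 18 rose and 2 fell, with 4 and 2 shared. Of 12 endothelial markers Kdr, a VEGF receptor, fell, at -0.64 ± 0.15 (SE, edgeR adjusted p = 0.0465), and 0 rose, with 2 higher at an unadjusted p under 0.05, 1 by DESeq2 and 2 by limma. Of 11 smooth muscle and pericyte markers Abcc9, a potassium channel subunit, fell, at -0.88 ± 0.23 (SE, edgeR adjusted p = 0.0489), and 0 rose. In that list 3 changes were positive in both genotypes, 4 negative in both and 4 opposite. Kdr and Abcc9 were shared only without KO sham replicate 1. Of 11 atrial markers 1, Kcna5, was called higher, and of 8 Schwann cell markers 1, Kcna1, was called lower. They changed by 0.77 ± 0.20 and -1.23 ± 0.28, with edgeR adjusted p of 0.0485 and 0.0463. These lists did not move with them, with median changes of -0.52 and 0.06. The cardiomyocyte, fibroblast, monocyte, MHC class II, neutrophil, T and NK cell, B cell, mesothelial, adipocyte, erythroid and skeletal muscle lists had 0 members called by edgeR on 12 libraries, with 0 to 2 higher and 0 to 3 lower in each at an unadjusted p under 0.05 and by DESeq2, and 0 to 2 and 0 to 5 by limma. In the 11-library fit 3 of 7 monocyte, 1 of 10 MHC class II, 3 of 4 neutrophil, 2 of 8 T and NK cell, 2 of 9 B cell and 2 of 6 skeletal muscle markers rose, and 1 of 10 MHC class II and 1 of 5 erythroid markers fell, against 18% and 18.8% of all genes. Their part in the other results was not tested. Myh4 of the skeletal muscle list was at 0 in all libraries.

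Of 21 genes of prostaglandin and lysophosphatidic acid signalling, Ptgds was the one called on 12 libraries. Among the 11 libraries, 8 rose, against 18% of all genes, and 1 fell, and 7 and 1 of these were shared, against 8.11% and 8.1%. Ptgis, prostacyclin synthase, changed then by 1.13 ± 0.17 (edgeR adjusted p = 0.00171), against 0.78 ± 0.26 (SE, edgeR adjusted p = 0.0747) on 12 libraries. Of 25 cell cycle genes Ccnd1, cyclin D1, fell, at -0.79 ± 0.19 (SE, edgeR adjusted p = 0.0467), and 0 rose, with 3 higher at an unadjusted p under 0.05, 2 by DESeq2 and 4 by limma. Heat shock, antioxidant, immediate early and cytokine lists had 0 members called on 12 libraries by edgeR, with 5, 6, 5 and 9 higher and 1, 3, 0 and 1 lower at an unadjusted p under 0.05, 4, 5, 1 and 6 higher and 0, 1, 0 and 1 lower by DESeq2, and 4, 6, 2 and 8 higher and 1, 4, 0 and 1 lower by limma. In the 11-library fit they had 5, 6, 2 and 9 members higher and 1, 3, 0 and 1 lower, of which 2, 5, 1 and 1 higher and 0, 0, 0 and 1 lower were shared. Against 18% and 18.8% of all genes, the 2 of 18 immediate early genes that rose and the members that fell in each of the 4 lists lie at or under the background.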

How the data were processed

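Raw counts of reads for each gene in the 12 libraries were used as deposited by the authors, whole numbers with no normalization. HISAT2 is the aligner per the submitters' processing notes, and reads were 150-base pairs per the labels' protocols. Which program counted the reads, on what build and annotation and with what use of strand, was not stated in the sources used here. Of 55357 Ensembl identifiers, 52081 matched a symbol, and 23267 had no count in any library.

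After TMM scaling and filterByExpr on the groups, genotype and surgery were fitted by the robust quasi-likelihood method of edgeR 4.0.16 (R 4.3.3), leaving 9 residual degrees of freedom. Benjamini-Hochberg adjustment ran over all 15804 tested genes at a threshold of 0.05. The WT and KO changes and their difference came from a model of the 4 groups (8 residual degrees of freedom). The fit was repeated without KO sham replicate 1, and alternatives used DESeq2 1.42.0, limma 3.58.1 (voom with sample weights), other scalings and filters, a 1.5-fold minimum, and omission of each library in turn. The script was tested on simulated data.

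The comparison and the 42 gene lists, 17 of them cell type markers, were chosen with earlier results of these data known. Named genes are Cd163, the 4 smallest p-values, the 10 shared genes per direction with the largest change at a group mean of at least 1 CPM and a settled symbol, and, per list, the 3 members of smallest p. Further list members were named after their values were seen. A few genes that the rule would name are not reported here. Promoter sequences come from RefSeq tables on GRCm38.p6, in which 11158 tested genes have an entry. Reads carry no molecular identifiers, so read numbers give counting error only.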

Additional observations from a re-analysis of the deposited data

How the results depend on the processing

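Leaving out 1 library at a time, the genes called on 12 libraries ran from 0 to 2913 higher and 0 to 3051 lower, and the shared genes from 0 to 1313 higher and 0 to 1312 lower, the highest each without KO sham replicate 1. With that library out, a further leave-one-out, added after the data were seen, gave 1503 to 3525 higher, 1645 to 3751 lower, 1061 to 1991 shared higher and 1091 to 2247 shared lower genes. Leaving out both KO sham replicate 1 and also WT TAC replicate 1, 2073 were higher and 2130 lower, with 1304 and 1205 shared. Library totals without TMM gave 16 higher and 6 lower, with 12 and 6 shared. The mean of the WT and KO contrasts of the 4-group model gave 147 higher and 237 lower, with 95 shared higher. DESeq2 gave 1489 higher and 1744 lower, with 519 and 357 shared, and limma with sample weights gave 3250 and 3474, with 477 and 400 shared. A minimum change of 1.5-fold left 0 higher and 0 lower. Asking for an unadjusted p under 0.05 in each genotype gave 340 shared higher and 445 shared lower, the intersection-union test (the larger of the WT and KO p-values) 0 and 0, and that test without KO sham replicate 1, also added later, 55 and 57. Size factors of DESeq2 in edgeR, no robust fit, a mean filter of 1 CPM and no filter moved each of the 4 counts by less than 1.5 times. The causes were not tested.

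Same-numbered sham and TAC libraries correlated at -0.162 and -0.175 in WT and -0.0329 and -0.0391 in KO. Those with different numbers ran from -0.313 to 0.387 in WT and from -0.0728 to 0.0644 in KO. With so few pairs, these values cannot settle whether the numbers pair the libraries. The fit with a replicate block called 0 higher and 0 lower genes, with 0 and 0 shared, and 1293 higher and 1448 lower at an unadjusted p under 0.05. In it Hbb-bs, not called in either fit, turned from -0.21 to 0.0106. Shared genes on 12 libraries had changes down to 0.34 in size, and whether depth limited the calls of smaller changes was not tested.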
